A study of Homo sapiens with 24 samples.

Results

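Alternative 5′ splice sites that lie close together were followed here: pairs of spliced junctions that end at the same 3′ splice site and start at 5′ splice sites 4 to 50 bases apart. A pair was taken if its shared 3′ site had reads in all 24 samples and if each of its junctions reached a mean percent spliced in (PSI) of 5 in at least 1 of the 4 groups of samples. The rule found 1687 pairs among the 33391 pairs, at any distance, that share a 3′ site and meet the same demands on reads and PSI. They lie at 1562 shared 3′ sites, of which 73 hold more than 1 pair, and in 1339 named genes. Because the rule reads the PSI of the junctions, the PSI levels of the members are a description, and no test of a pair of groups rests on them. A later test of pair choice that uses all 4 groups chose its members on the samples tested. The weaker junction of the members nearest to the limit reached a highest group mean of 5.00% in SLC48A1 and 5.01% in FAAP20, whereas SLC25A24 at 4.998% and IRF3 at 4.99% fell just outside.

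A 5′ splice site is the start of an intron. It is first recognised by U1 snRNP, whose RNA pairs with the last exon bases and the first intron bases, and is later handed over to U6. The 3′ end of the intron is recognised in parallel by U2 snRNP, whose SF3b complex holds the branch point, and both ends are then joined. Where a second usable 5′ site lies a few bases away, the same intron can be removed with a slightly longer or shorter exon, and if the distance is not a multiple of 3 the reading frame after the junction differs between the products. E7107 is a pladienolide derivative that binds SF3b, so it acts on the other end of the intron, the end that both junctions of a pair share.

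The samples were HCT116 cells, a human colorectal carcinoma line, into which WT or Y36C PHF5A had been introduced with a lentivirus. PHF5A is a subunit of SF3b and Y36C replaces a tyrosine with a cysteine. All groups therefore carry an added PHF5A gene beside their own, and nothing in the labels says whether the lines are clones. The groups are called WT DMSO and WT E7107 for the WT cells without and with drug, and Y36C DMSO and Y36C E7107 for the mutant cells, each with 6 samples. Exposure lasted 6 h. The labels give no dose, and none is printed here. Poly(A) RNA was sequenced, and neither the PHF5A genotype nor the identity of the line can be checked, because the files hold junction percentages only.

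In what follows the distal site is the upstream 5′ site, which leaves the longer intron, and the proximal site is the downstream one, nearest to the shared 3′ site. The proximal share is the PSI of the proximal junction as a percentage of the summed PSI of both. Sequences of 12 pairs on which the results turn are given first, read 5′ to 3′ on the strand of the gene from the hg19 (GRCh37) reference, from 10 exon bases before the distal site to 10 bases after the start of the proximal intron, with the first 2 intron bases of each site in capitals. The first set holds the 3 pairs that differed between Y36C and WT cells without drug, all with coding sequence between the sites: HNRNPC (chr14:21699107-21699165, minus strand, 39 bases), CENATAC (chr11:118881984-118882031, plus strand, 28 bases) and ELOVL7 (chr5:60067720-60067785, minus strand, 46 bases), whose proximal site begins with GC.
HNRNPC: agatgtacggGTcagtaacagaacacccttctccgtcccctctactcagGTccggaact
CENATAC: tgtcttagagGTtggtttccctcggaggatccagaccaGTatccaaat
ELOVL7: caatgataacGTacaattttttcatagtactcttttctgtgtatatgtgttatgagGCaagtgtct

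The second set holds pairs whose choice moved in WT cells under E7107. It is made of LUC7L (chr16:239920-239976, minus strand, 37 bases), PRPF38B (chr1:109238383-109238412, plus strand, 10 bases, its proximal junction not annotated), BRPF1 (chr3:9783828-9783865, plus strand, 18 bases), ENOPH1 (chr4:83352028-83352076, plus strand, 29 bases), IRF2BP2 (chr1:234744183-234744250, minus strand, 48 bases), whose distal site begins with GC, and N4BP2L2 (chr13:33101535-33101604, minus strand, 50 bases). Apart from PRPF38B, the bases between their sites are annotated as coding.
LUC7L: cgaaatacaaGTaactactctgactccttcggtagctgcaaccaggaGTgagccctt
PRPF38B: gtgcggagggGTaagtagaaGTacgtgcat
BRPF1: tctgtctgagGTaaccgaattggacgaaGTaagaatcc
ENOPH1: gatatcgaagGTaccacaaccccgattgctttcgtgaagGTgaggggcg
IRF2BP2: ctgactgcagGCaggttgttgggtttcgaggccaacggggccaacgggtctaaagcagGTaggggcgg
N4BP2L2: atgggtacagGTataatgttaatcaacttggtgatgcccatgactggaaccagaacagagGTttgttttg

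The third set holds pairs whose choice moved in Y36C cells under E7107, again with coding sequence between the sites: CNBP (chr3:128890467-128890507, minus strand, 21 bases), YAP1 (chr11:102076796-102076827, plus strand, 12 bases) and SLX9 (chr21:46363698-46363762, plus strand, 45 bases). In SLX9 the 9 bases around both sites are scored alike, at 9.57 for either site on the scale given below.
CNBP: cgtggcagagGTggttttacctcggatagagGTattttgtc
YAP1: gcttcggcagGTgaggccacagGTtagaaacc
SLX9: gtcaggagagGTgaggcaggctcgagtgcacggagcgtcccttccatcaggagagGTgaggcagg

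Distances within the pairs were uneven. The distance was 4 bases in 204 pairs, far above the next most frequent distance, 6 bases, with 73 pairs, and the median was 18 bases. Multiples of 3 made up 646 of the 1687 pairs (38.3%), and the plot of distances shows them standing above their neighbours along most of the range. The bases between the sites were annotated as coding in 704 pairs, as 5′ UTR in 399, as part of a noncoding exon in 145 and as 3′ UTR in 35. This was read from the transcripts that hold the proximal junction. In the other 404 pairs no annotated transcript holds it, and the bases were not classed. Of the coding pairs 358 (50.9%) were a multiple of 3 bases apart, against 118 of the 5′ UTR pairs (29.6%). Both junctions were annotated in 1020 pairs, only the distal in 310, only the proximal in 263 and neither in 94.

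**Figure D1:**
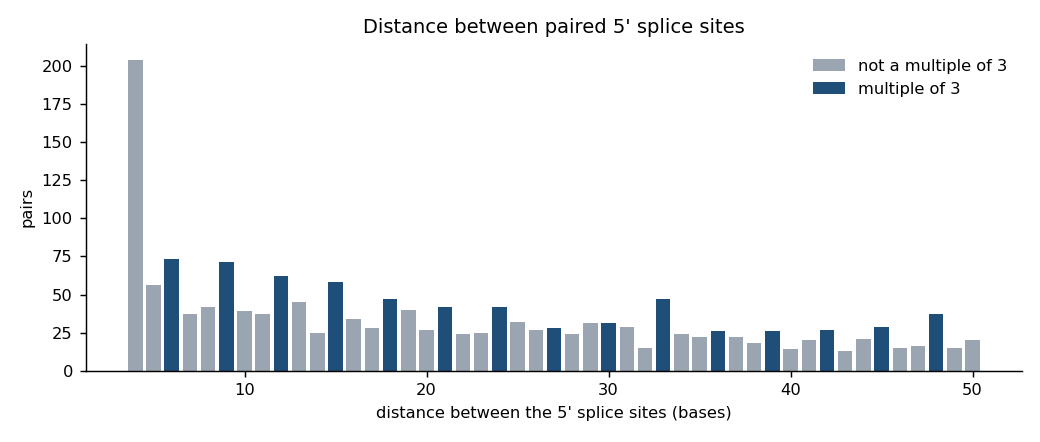
Number of pairs (y axis) at each distance between the paired 5′ splice sites in bases (x axis), with multiples of 3 in dark blue and other distances in grey. The bar at 4 bases holds 204 pairs, and the highest of the others, at 6 bases, holds 73.

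The pairs at 4 bases had a sequence in common that the distance itself favours. Since the proximal GT then falls on bases 5 and 6 of the distal intron, 178 of the 204 read GTNNGT across both sites (N is any base), and 78 read GTAGGT, 29 GTGGGT, 18 GTGAGT and 10 GTAAGT. Among all 337455 donor sites of the files, which no distance holds to GTNNGT, 31.4% read GTNNGT, 2.3% GTAGGT and 8.93% GTAAGT. The distal site was the more used of the pair in most of these, with a median proximal share of 25.3% in WT DMSO and the proximal site dominant in 76 of 204, although the proximal site had the higher score in 141.

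Site strength went only part of the way with use. Each site was scored from 3 exon and 6 intron bases as the log odds of its bases in all donor sites of the files. Across 1682 pairs with a share in WT DMSO the higher-scoring site was the dominant one in 960 (57.1%). The difference of the scores and the proximal share had a Pearson correlation of 0.27 and a Spearman correlation of 0.27 across pairs, which are not independent replicates and share libraries. Where the proximal site scored lower by over 4, the median proximal share was 13.7% (58 pairs), and where it scored higher by over 4, the median was 89.1% (77 pairs). The quartiles were wide, from 12% to 86.9% in the 584 pairs in which the proximal site scored higher by 0 to 2. Under E7107 the same bins had medians of 14.5% and 88.3% in WT cells and of 15.2% and 86.9% in Y36C cells.

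The files hold no counts, so the nearest measure of depth is how many splice sites had any read. This number ran from 336249 to 340081 in the 12 DMSO samples, from 281164 to 283548 in WT E7107 and from 328458 to 331604 in Y36C E7107, so WT E7107 values rest on fewer sites, and 254 of the members had a WT E7107 sample without reads on either junction, against 101 in WT DMSO, 96 in Y36C DMSO and 119 in Y36C E7107. A PSI in steps such as 0, 25 or 100 in a single sample is therefore given with the range of its group. Nothing in the labels says that the 6 samples of a group came from separate cultures, so p-values measure the spread between these samples, which may be technical.

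The reads that stay unspliced at the shared 3′ site show what E7107 did to these introns as a whole. The rule did not read their PSI, but it shares a denominator with the junctions that the rule did read. The sites of the whole series were held to no such demand on junctions. The mean PSI of unspliced reads over the shared 3′ sites was, as lowest, median and highest of 6 samples, 9.47%, 9.90% and 10.7% in WT DMSO, 22.3%, 23.4% and 23.8% in WT E7107, 9.41%, 9.85% and 10.1% in Y36C DMSO and 11.7%, 12.1% and 12.3% in Y36C E7107. WT E7107 samples lay above all others without overlap, and Y36C E7107 samples lay above both DMSO groups. In WT cells 555 of the 885 shared 3′ sites that could be tested were raised and 87 lowered, which is 62.7% raised (limma on the log odds, Benjamini-Hochberg adjusted p of 0.05 or less), where 69.0% of the 54445 tested 3′ sites of the whole series were raised and 6.49% lowered. A site entered this test through unspliced reads in every sample of a compared group, which could be the treated group where retention was high. As a choice made after seeing the data, counts are also given for sites that had them in a group not compared as well. They still had to pass in a compared group, so these counts are not free of the tested samples. Among the 629 sites with unspliced reads in every sample of a Y36C group, which the comparison does not use, 336 were raised (53.4%) and 84 lowered (13.4%), against 57.6% and 9.01% of all such sites. In Y36C cells 140 of 708 were raised (19.8%, against 26.6% of all 46074) and 20 lowered (1.48% of all). Among the 629 with unspliced reads in every sample of a WT group 117 were raised (18.6%) and 19 lowered (3.02%), against 27.0% and 1.45% of all such sites. Between the genotypes, the test of the difference itself called a smaller effect of the drug in Y36C cells at 465 of 964 sites and a larger one at 104 (53.4% and 9.71% of all 58600 sites).

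The boundary at the proximal 5′ site has its own reads and gave a like picture. Of 524 tested proximal sites 335 were raised and 29 lowered by E7107 in WT cells (72.8% and 5.05% of all 5′ sites tested), and of 529 in Y36C cells 93 were raised and 16 lowered (28.6% and 1.36% of all). Tested proximal sites that also had unspliced reads in every sample of a group not used numbered 367 in WT and 451 in Y36C cells. Of these, 204 (55.6%) and 80 (17.7%) were raised, against 60.6% and 28.8% of all such sites. The E7107 effect was smaller in Y36C at 259 of 558 proximal sites and larger at 38 (56.6% and 8.2% of all 5′ sites). The boundary at the distal site is not used, because reads of transcripts spliced at the proximal site cross it as well.

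The choice between the sites was averaged in the same way. The mean proximal share over the 1396 pairs with reads on the pair in every sample had a lowest, median and highest sample value of 46.3%, 46.7% and 47.0% in WT DMSO, 46.2%, 46.5% and 47.4% in WT E7107, 46.5%, 46.8% and 47.0% in Y36C DMSO and 47.4%, 47.7% and 48.0% in Y36C E7107. The first 3 groups overlapped, and the lowest Y36C E7107 sample lay just under the highest WT E7107 sample and above all DMSO samples. The Y36C samples without and with drug did not overlap. These means are a description, because the rule read the same PSI values, and the groups did not bring in members evenly. Both junctions reached 5% only in WT DMSO in 66 members and only in WT E7107 in 154. For Y36C DMSO and Y36C E7107 these counts were 70 and 174. The plot by sample sets the mean share beside the retention.

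**Figure D2:**
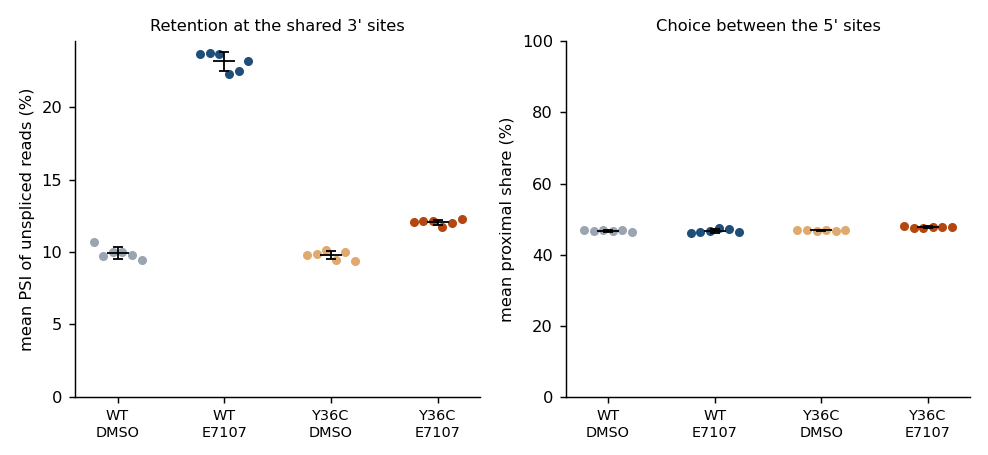
Left, mean PSI of unspliced reads over the shared 3′ splice sites (y axis, percent), and right, mean proximal share over the pairs with reads in every sample (y axis, percent), for each of the 24 samples (points), with group mean and SD (bars), in the 4 groups (x axis). Retention in WT E7107 lies between 22.3% and 23.8%, above all other samples, while the mean share of every sample lies between 46.2% and 48.0%.

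The question of whether E7107 moved the choice within single pairs was put to the natural log of the ratio of proximal to distal PSI, with 1 percentage point added to each. To keep the test apart from the rule, members were chosen anew for each comparison of a pair of groups on the samples that it does not use. Testing needed each junction to be above 0 in every sample of some group. Of the 1687 members 1141 met this and 546 did not, so the tested pairs are the better covered ones. In WT cells 1064 such members were tested and 155 were called (14.6%), 79 toward the proximal site and 76 toward the distal site. Among all 38859 pairs sharing a 3′ site at any distance, which include exon skipping, 28.8% were called, 7.06% toward the proximal and 21.7% toward the distal (farther) site. A pair could also pass this filter through a tested group. Of the 1013 members with both junctions above 0 in every sample of some Y36C group 144 were called (14.2%), against 22.2% of all such pairs. Pairs over 50 bases apart, chosen as the members were, were called in 22.2% and alternative 3′ sites 4 to 50 bases apart in 14.6%. The difference between these shares was not tested.

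Changes in WT cells were mostly small. The median size of the difference in proximal share was 4.29 percentage points over the members tested, 55.1% of them moved by less than 5 points, and the called ones had a median of 8.45 points with 66 of 155 at 10 points or more. With the share in percent as the response 127 of 990 were called (23.9% of all pairs), and 121 of the 155 were called in both ways. The offset pulls the log ratio toward equal use where retention is high, as it is in WT E7107, and in 5 of the 155 the share and the log ratio moved in opposite directions.

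**Figure D3:**
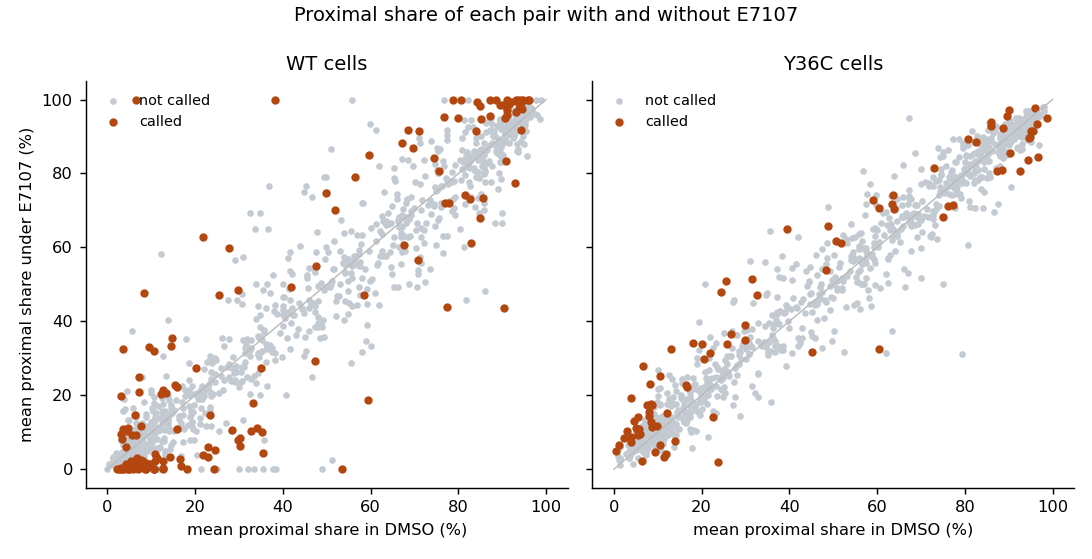
Mean proximal share in DMSO (x axis, percent) against mean proximal share under E7107 (y axis, percent) for each tested pair in WT cells (left) and Y36C cells (right), pairs called in orange and others in grey, with the line of equality. Called pairs (155 in WT, 85 in Y36C) lie on both sides of the line, and in WT cells many sit at the lower left and upper right edges, where the minor site is little used under E7107.

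BRPF1, a subunit of a histone acetyltransferase complex, had the lowest adjusted p of the pairs named in WT cells. Like IRF2BP2, ENOPH1, GRHPR, CNBP, SLX9, YAP1, ZFAS1 and TATDN2, it was chosen by its adjusted p after the values were seen. Its proximal share had a lowest, median and highest value of 22.4%, 28.7% and 32.4% in WT DMSO, 51.4%, 59.8% and 70.0% in WT E7107, 22.2%, 28.0% and 36.7% in Y36C DMSO and 22.0%, 30.8% and 41.5% in Y36C E7107. The WT E7107 samples stood alone, and the other groups overlapped. The log ratio rose by 1.33 ± 0.15 (SE) in WT cells (limma adjusted p = 2.25e-05), while in Y36C cells its change was 0.13 ± 0.17 (limma adjusted p = 0.609). The unspliced PSI at its 3′ site went from 2.29% to 50.5% in WT cells and from 3.17% to 3.36% in Y36C cells, so the proximal junction kept a PSI of 26.3% and 25.6% while the distal one went from 67.9% to 17.4%.

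IRF2BP2, a transcriptional corepressor, had the same pattern. Its proximal share was 46.5%, 57.5% and 65.6% (lowest, median, highest) in WT DMSO and 73.8%, 80.1% and 83.0% in WT E7107, with no overlap, and 47.3%, 56.0% and 62.5% in Y36C DMSO and 45.8%, 57.9% and 61.2% in Y36C E7107, which overlapped. The log ratio rose by 1.01 ± 0.14 in WT cells (limma adjusted p = 0.000134) and changed by 0.04 ± 0.13 in Y36C cells (limma adjusted p = 0.851), and the unspliced PSI in WT cells was 6.25% without and 50.6% with drug.

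ENOPH1, an enzyme of the methionine salvage pathway, moved to its proximal site in WT cells with little retention. The share was 61.8%, 67.6% and 72.1% in WT DMSO and 83.2%, 88.2% and 92.6% in WT E7107 (lowest, median, highest), and the unspliced PSI was 0.382% and 6.63%. In Y36C cells it moved the other way, from 72.2%, 74.1% and 79.9% in Y36C DMSO to 65.4%, 68.4% and 72.6% in Y36C E7107, groups that overlapped slightly. The changes in log ratio were 1.26 ± 0.15 in WT (limma adjusted p = 3.40e-05) and -0.32 ± 0.09 in Y36C cells (limma adjusted p = 0.0127). GRHPR, a glyoxylate reductase, also rose in WT cells, from a mean of 74.5% ± 2.40 to 84.2% ± 1.86 (SD, n = 6), with a log ratio change of 0.58 ± 0.09 (limma adjusted p = 0.000434).

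The members named for the largest change in share in WT cells were less precise. PIGG, of GPI anchor synthesis, had a mean proximal share of 38.2% in WT DMSO and 100% in the 5 WT E7107 samples with reads on the pair (limma adjusted p = 0.00206), and the fit took the remaining sample as equal use. FAM168B stood at 6.55% in WT DMSO and 100% in WT E7107, where only 2 of the 6 samples had reads on the pair and the other 4 entered the fit as equal use (limma adjusted p = 0.0057). ATXN2, an RNA-binding protein, ranged from 0% to 100% within WT DMSO and was at 0% in all 6 WT E7107 samples (limma adjusted p = 0.0157). These wide ranges mean that their size should be read with the spread of the group.

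N4BP2L2 was named by the same rule and had narrower groups without drug. Its proximal share was 85.5%, 90.6% and 95.6% in WT DMSO, 0%, 47.8% and 66.7% in WT E7107, 83.3%, 90.7% and 93.5% in Y36C DMSO and 84.2%, 88.7% and 100% in Y36C E7107 (lowest, median, highest). Only WT E7107 lay apart, below the other 3 groups (log ratio change -2.80 ± 0.71, limma adjusted p = 0.00994). TENT2, a cytoplasmic poly(A) polymerase with its pair in the 5′ UTR, went from a mean of 59.4% ± 8.73 to 18.8% ± 16.9 in WT cells (SD, n = 6, limma adjusted p = 0.0032), with an unspliced PSI of 75.9% and 78.9%. MYO9B, an unconventional myosin, went the other way, from 21.8% ± 12.5 to 62.8% ± 24.5 (SD, n = 6, limma adjusted p = 0.0259), with overlap between the groups, and this call was lost with an offset of 0.1.

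In Y36C cells 85 of the 1015 members tested were called (8.37%), 60 toward the proximal and 25 toward the distal site. Among all pairs 37.1% were called, with 5.5% toward the proximal and 31.6% toward the distal site. Pairs over 50 bases apart were called in 37% and close alternative 3′ sites in 17.6%, differences that were not tested. Of the 928 members with both junctions above 0 in every sample of some WT group 75 were called (8.08%), 55 toward the proximal and 20 toward the distal site, against 31.1% of all such pairs. The median size of the difference in share was 2.97 points over the members tested and 7.46 over the called ones, of which 23 reached 10 points. With the share in percent 87 of 1007 were called (33.1% of all pairs), 75 of them among the 85.

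CNBP, a nucleic-acid-binding zinc finger protein, was among the most precise. Its proximal share was 30.3%, 31.4% and 32.3% in WT DMSO, 29.8%, 31.7% and 32.3% in WT E7107, 26.2%, 29.8% and 32.8% in Y36C DMSO and 36.8%, 39.1% and 41.7% in Y36C E7107 (lowest, median, highest). Only the Y36C E7107 samples stood apart, above the rest. The log ratio rose by 0.40 ± 0.07 in Y36C cells (limma adjusted p = 0.000615) and changed by 0.01 ± 0.07 in WT cells (limma adjusted p = 0.948).

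SLX9, a ribosome biogenesis factor, and YAP1, the coactivator of the Hippo pathway, also rose in Y36C cells. SLX9 was at 60.0%, 63.0% and 68.3% in Y36C DMSO and 69.6%, 72.4% and 73.7% in Y36C E7107, with no overlap (log ratio change 0.38 ± 0.07, limma adjusted p = 0.00182), and at a mean of 62.2% and 57.6% in WT DMSO and WT E7107 (limma adjusted p = 0.254). YAP1 was at 18.9%, 21.9% and 27.0% in Y36C DMSO and 28.6%, 30.6% and 35.9% in Y36C E7107 (log ratio change 0.48 ± 0.09, limma adjusted p = 0.00155), and at a mean of 27.6% and 25.1% in WT cells (limma adjusted p = 0.621). For both the difference between the genotypes was itself called, at 0.57 ± 0.13 (limma adjusted p = 0.00164) and 0.65 ± 0.23 (limma adjusted p = 0.0314).

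ZFAS1, a noncoding host gene of small nucleolar RNAs, rose in both lines. Its minor proximal site went from a mean of 6.06% ± 0.574 to 9.56% ± 0.972 in Y36C cells and from 6.40% ± 0.964 to 9.15% ± 1.39 in WT cells (SD, n = 6), with limma adjusted p of 0.000322 and 0.011, and a difference between the genotypes of 0.05 ± 0.11 in log ratio (limma adjusted p = 0.772). The unspliced PSI at the same 3′ site was 1.91% and 0.937% in Y36C cells but 1.42% and 32.1% in WT cells. TATDN2, with its pair in the 3′ UTR, rose from 20.2% ± 4.32 to 33.8% ± 4.15 in Y36C cells (SD, n = 6, limma adjusted p = 0.00134) and spread from 7.41% to 72.2% in WT E7107.

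Large called changes in Y36C cells were those of FRMD6, an upstream component of the Hippo pathway, from 39.4% ± 10.4 to 65.0% ± 11.2 (SD, n = 6, limma adjusted p = 0.00775), and of NUDT1, a hydrolase of oxidised nucleotides, from 25.5% ± 11.7 to 50.9% ± 17.0 (SD, n = 6, limma adjusted p = 0.0291). ZNF37A rose from 24.4% to 47.9% (limma adjusted p = 0.0349) and ARHGEF16, a guanine nucleotide exchange factor, from 31.5% to 51.5% (limma adjusted p = 0.0139). The calls of ZNF37A and ARHGEF16 were lost with the replicate number as a block, and those of ZNF37A and NUDT1 without the filter on low PSI. DAG1, the gene of dystroglycan, stood at 23.7% and 1.85%, and FAM168B at 6.67% and 28.0%, in Y36C DMSO and Y36C E7107. These 2 pairs passed the filter only through the Y36C group in which the proximal junction was high, so no test is given for them. The samples without and with drug overlapped in all of these except DAG1 and ARHGEF16. In ZNF37A, DAG1, ARHGEF16 and FAM168B no annotated transcript holds the proximal junction, so the bases between the sites were not classed.

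Without drug few pairs were called between Y36C and WT cells. Of 1053 members tested 3 were called (0.285%, against 0.638% of all pairs), all 3 toward the proximal site in Y36C cells (0.216% of all pairs moved that way and 0.422% toward the distal site), while 92 had an unadjusted p under 0.05. The median size of the difference in share was 2.09 points. Pairs over 50 bases apart were called in 0.806% and close alternative 3′ sites in 4.18%. The 3 calls stood close to the threshold: none was left with an offset of 0.1 or with the replicate number as a block, while the same 3 were called with the share in percent (0.499% of all pairs).

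HNRNPC, an abundant RNA-binding protein of the nucleus whose shorter and longer forms differ by a short insert, had the tightest groups. Its proximal share was 42.5%, 43.6% and 44.7% in WT DMSO, 43.7%, 45.2% and 45.9% in WT E7107, 47.2%, 48.4% and 49.7% in Y36C DMSO and 53.0%, 53.6% and 54.7% in Y36C E7107 (lowest, median, highest). Both Y36C groups lay above both WT groups, and the Y36C groups did not overlap each other. The log ratio was higher by 0.19 ± 0.04 in Y36C than in WT cells without drug (limma adjusted p = 0.0463), rose by 0.21 ± 0.05 with E7107 in Y36C cells (limma adjusted p = 0.00336) and changed by 0.05 ± 0.07 in WT cells (limma adjusted p = 0.615). The difference of the E7107 effect between the genotypes was 0.16 ± 0.07 (limma adjusted p = 0.0914).

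CENATAC, a protein of the minor spliceosome, was called in every comparison. Its proximal share was 44.6%, 46.5% and 54.2% in WT DMSO, 16.7%, 26.1% and 42.9% in WT E7107, 54.1%, 59.7% and 63.9% in Y36C DMSO and 63.8%, 72.8% and 79.7% in Y36C E7107 (lowest, median, highest). The order from WT E7107 through WT DMSO and Y36C DMSO to Y36C E7107 held for the means and medians. The WT groups did not overlap, and the other neighbours overlapped at their ends. The log ratio fell in WT cells by 0.79 ± 0.19 (limma adjusted p = 0.0082), rose in Y36C cells by 0.61 ± 0.13 (limma adjusted p = 0.00352) and was higher in Y36C cells without drug by 0.47 ± 0.09 (limma adjusted p = 0.049). The proximal site, which was used more in Y36C cells, scored 0.15 and the distal one 6.73.

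ELOVL7, a fatty acid elongase, was at 78.6%, 81.4% and 88.9% in WT DMSO and 88.9%, 93.8% and 95.5% in Y36C DMSO (lowest, median, highest), groups that met at their ends, with a log ratio higher by 0.94 ± 0.17 (limma adjusted p = 0.0412). With E7107 it fell in Y36C cells to 66.7%, 80.0% and 90.0% (log ratio change -1.0 ± 0.24, limma adjusted p = 0.00742) and was at 69.2%, 97.2% and 100% in WT cells (limma adjusted p = 0.0527). The plot of 12 pairs by sample shows these groups.

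**Figure D4:**
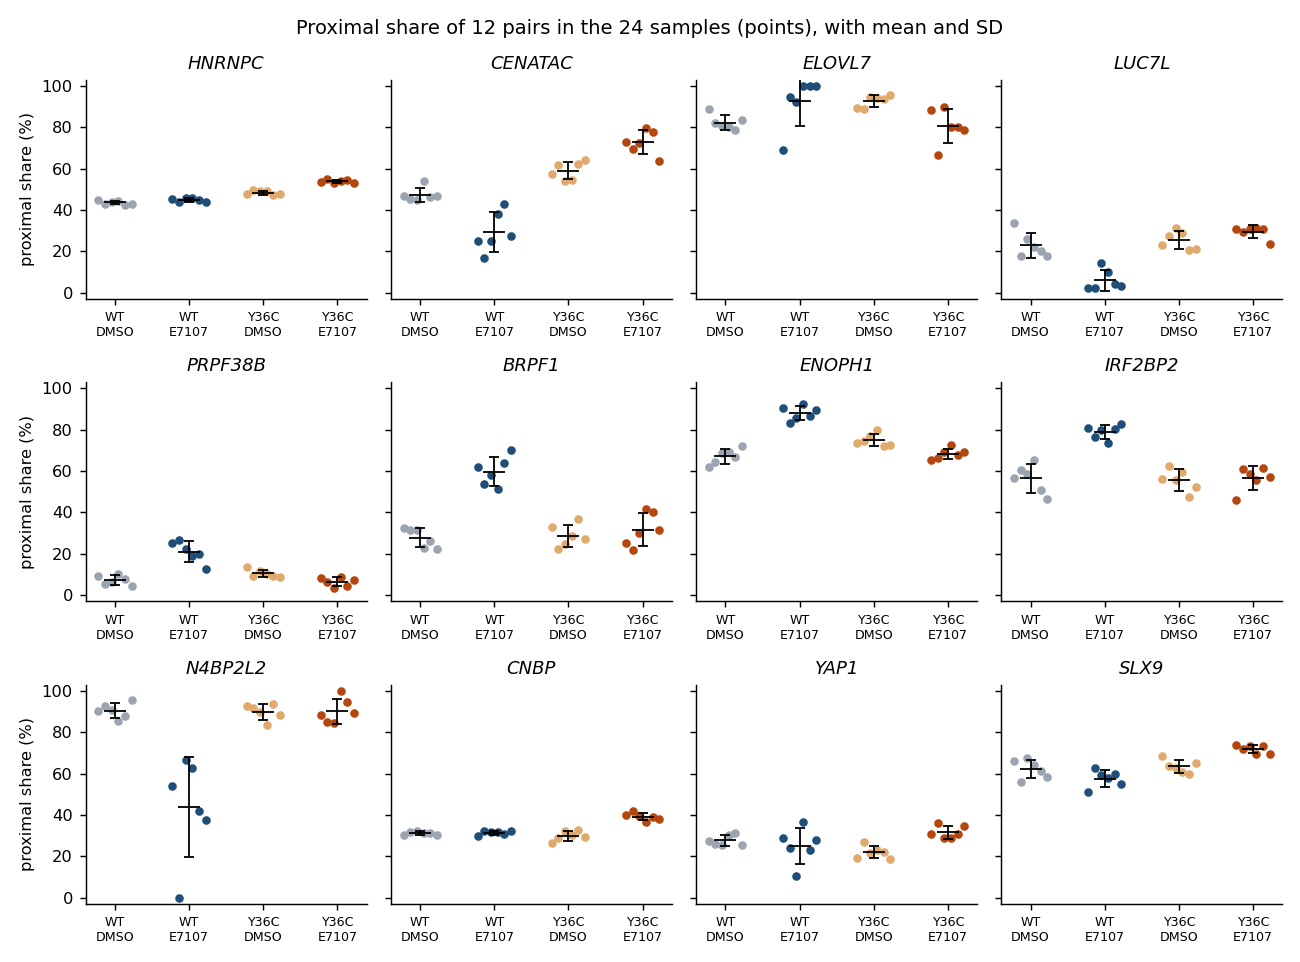
Proximal share in percent (y axis) of 12 pairs in the 24 samples (points, 6 per group), with group mean and SD (black), in the 4 groups (x axis). HNRNPC, CENATAC and ELOVL7 differ between the genotypes without drug, LUC7L, BRPF1, ENOPH1, IRF2BP2 and N4BP2L2 stand apart in WT E7107, where PRPF38B has its highest mean, and CNBP, YAP1 and SLX9 have their highest mean in Y36C E7107.

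Under E7107 the genotypes differed in 169 of 1013 members tested (16.7%, against 43.4% of all pairs), 98 with more proximal use in Y36C than in WT cells and 71 with less (19.4% and 24.0% of all pairs). Of the 980 members with both junctions above 0 in every sample of some DMSO group 161 were called (16.4%), against 33.6% of all such pairs. Pairs over 50 bases apart were called in 35.6% and close alternative 3′ sites in 28.3%. The called pairs differed by a median of 11.2 points, and 93 of 169 by 10 points or more. With the share in percent 157 of 942 were called (39.7% of all pairs). Named for the largest difference were TENT2 (80.6% in Y36C E7107 against 18.8% in WT E7107, limma adjusted p = 0.0011), ATXN2 (59.7% against 0%, limma adjusted p = 0.00645), N4BP2L2 (90.2% against 43.7%, limma adjusted p = 0.00922) and CENATAC (72.8% against 29.2%, limma adjusted p = 2.25e-05). MSTO1, which has a closely related copy in the genome with which reads may be shared, was at 63.7% against 2.5% (limma adjusted p = 0.00412), with a sample without reads on the pair that the fit took as equal use. COL27A1, a collagen, was at 95% in the 5 Y36C E7107 samples with reads on the pair and at 53.8% in WT E7107, and it passed the filter only through WT E7107, so no test is given for it.

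The difference of the E7107 effect between the genotypes was tested on the 622 members with both junctions at 5% or more in all 4 groups that passed the filter. No sample is free of the rule here, so these members were chosen on the samples tested. The pairs over 50 bases apart and the close alternative 3′ sites were held to the same limit, but all pairs were not. It was called in 47 (7.56%, against 35.5% of all pairs), 25 with the effect in Y36C cells more toward the proximal site and 22 with it more toward the distal site (16.5% and 19.1% of all pairs). Pairs over 50 bases apart were called in 23% and close alternative 3′ sites in 8.93%. With the share in percent 59 of 604 were called (34.3% of all pairs). Among the same 622 members 46 were called in WT and 41 in Y36C cells. The calls of both lines had 10 members in common, which is 21.7% of those in WT and 24.4% of those in Y36C cells, and 3 of the 10 moved in the same direction. Over all pairs tested the calls in common were 38.7% of those in WT and 30% of those in Y36C cells, with 77.7% of them in the same direction, and over pairs more than 50 bases apart at 5% or more in all 4 groups they were 47.7% and 20.2%, with 79.7% in the same direction. The difference from the members was not tested.

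The pairs named here were chosen for the size of the difference in share, and their difference in log ratio is given. They were N4BP2L2 (2.98 ± 0.83 in log ratio, limma adjusted p = 0.0068), HDHD2 (2.52 ± 0.57, limma adjusted p = 0.00123), PIGBOS1 (-2.52 ± 0.92, limma adjusted p = 0.0369) and SKA1, a kinetochore protein (2.03 ± 0.78, limma adjusted p = 0.0471), whose call was lost with an offset of 0.1 and without the filter. HDHD2 had a proximal share of 20.9%, 31.0% and 48.0% in WT DMSO and 0%, 8.83% and 22.7% in WT E7107, but 10.8%, 17.4% and 24.0% in Y36C DMSO and 21.7%, 28.4% and 53.3% in Y36C E7107 (lowest, median, highest). It fell in WT cells (limma adjusted p = 0.0201) and rose in Y36C cells (limma adjusted p = 0.0293), with slight overlap in both. PIGBOS1 and SKA1, with pairs in the 5′ UTR, spread from 33.3% to 100% and from 0% to 62.5% in WT E7107, and PIGBOS1 had reads on the pair in 5 of those 6 samples, the remaining one being taken as equal use.

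A list of 31 genes of 5′ splice site recognition, U1 snRNP and tri-snRNP among them, held 2 genes with a member, and both were called in WT cells, where 14.6% of the members and 28.8% of all pairs were. LUC7L, a U1 snRNP-associated factor, had a proximal share of 17.8%, 21.3% and 33.8% in WT DMSO, 2.04%, 3.65% and 14.3% in WT E7107, 20.5%, 25.4% and 31.1% in Y36C DMSO and 23.4%, 30.8% and 31.4% in Y36C E7107 (lowest, median, highest). Only WT E7107 stood apart, below the other groups. The log ratio fell by 1.61 ± 0.31 in WT cells (limma adjusted p = 0.00161) and changed by 0.21 ± 0.11 in Y36C cells (limma adjusted p = 0.178), with a difference of 1.82 ± 0.34 (limma adjusted p = 0.000165), and the unspliced PSI was lower in WT E7107 (1.78%) than in WT DMSO (6.49%).

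PRPF38B, a pre-mRNA processing factor, moved in opposite directions in the 2 lines. The junction from its minor proximal site is not annotated. This site had shares of 4.24%, 7.17% and 10.4% in WT DMSO, 12.6%, 21.0% and 26.8% in WT E7107, 8.96%, 9.78% and 13.5% in Y36C DMSO and 3.25%, 7.01% and 8.77% in Y36C E7107 (lowest, median, highest). The log ratio rose by 1.21 ± 0.18 in WT cells (limma adjusted p = 0.000197) and fell by 0.50 ± 0.16 in Y36C cells (limma adjusted p = 0.0251). In WT E7107 63.3% of the reads at the 3′ site were unspliced, against 2.15% in WT DMSO, and the PSI of the proximal junction was 7.70% and 7.05%, so the share rose while the distal junction went from 90.8% to 28.9%.

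The other lists held little. Of a list of 10 genes taken from the study's text, chosen there on these samples, CDK10, a cyclin-dependent kinase, was the 1 with members, as 2 pairs with the same 5′ sites 38 bases apart and different 3′ sites. Neither was called in any comparison: the proximal share at the nearer 3′ site was 47.3% ± 5.61 and 38.4% ± 13.2 in WT cells without and with drug, and 56.6% ± 4.87 and 50.1% ± 15.0 in Y36C cells (SD, n = 6). In the same order it was 78.5% ± 7.48, 80.3% ± 9.41, 81.5% ± 7.34 and 80.9% ± 2.08 at the farther 3′ site. None of 10 SF3a and SF3b genes had a member, and of 8 genes listed for known tandem donors 1 had a member, which was not called in WT or Y36C cells.

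Some pairs held their proportion in every group. The members with the smallest range of group means, among those with at least 25% of the use at the minor site throughout, were TRRAP, a scaffold of acetyltransferase complexes, SEC23B of the COPII coat, MRPL24 of the mitochondrial ribosome and PABPC4, a poly(A)-binding protein. The 4 group means of TRRAP lay between 27.5% and 28.4%, those of SEC23B between 55.7% and 56.5%, those of MRPL24 between 55.8% and 57.1% and those of PABPC4 between 65.9% and 67.4%. SDs within the groups were 2.47 to 8.93 points in these genes, larger than the ranges of their means.

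Pairs were then set apart by their place in the transcript and by reading frame, and the shares called in WT cells are given for each class without a test between classes. Over all pairs at any distance 28.8% were called, and over all members tested 14.6%. Of coding pairs whose distance is not a multiple of 3, 60 of 222 tested were called (27.0%), and of coding pairs at a multiple of 3, 23 of 288 (7.99%). In the 5′ UTR, where no frame is read, the shares were 14 of 192 (7.29%) and 5 of 82 (6.10%). With the share in percent as the response the counts were 52, 21, 12 and 3, and 23.9% of all pairs were called. Among pairs with both junctions above 0 in every sample of some Y36C group the shares called were 59 of 213 (27.7%), 22 of 283 (7.77%), 14 of 184 (7.61%) and 2 of 77 (2.6%), in the same order. Of all such pairs at any distance 22.2% were called. The frame-changing coding pairs at 4 bases held 6 of the calls and those farther apart held 54 of 187 tested (28.9%).

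Precision and level of these classes were as follows. For frame-changing and frame-keeping coding pairs the median SE of the log ratio was 0.33 and 0.29, the median share of the minor site in WT DMSO was 10.5% and 19.3%, and the median size of the difference in share was 4.72 and 3.11 points. In Y36C cells the calls were 27 of 204 (13.2%) and 18 of 292 (6.16%), and under E7107 Y36C differed from WT cells in 63 of 206 (30.6%) and 32 of 290 (11%). Of all pairs 37.1% and 43.4% were called in these comparisons. The difference of the E7107 effect between genotypes was called in 20 of 99 (20.2%) and 9 of 225 (4.0%), against 35.5% of all pairs. The part of the minor-site level in these counts was not tested.

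The direction of the calls was then read against the site that was dominant in DMSO samples the comparison does not use. In WT cells 99 of the 155 called members moved toward the dominant site and 56 away from it, against 30.5% toward it among all pairs called and 47.0% among called pairs over 50 bases apart. Of called members with both junctions above 0 in every sample of some Y36C group, 93 moved toward it and 51 away. Among all such pairs these counts were 2712 and 4204. Of the 60 frame-changing coding pairs 47 moved toward the dominant site and 13 away, and the median share of the minor site in these 60 was 9.17% in WT DMSO and 3.33% in WT E7107. Of the 23 frame-keeping coding pairs 11 moved toward it and 12 away. With the share in percent as the response the frame-changing pairs were split into 41 and 11.

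In Y36C cells the split was as follows. Of the 85 called members 25 moved toward the dominant site and 60 away from it (17.9% toward it among all called pairs, 21.0% among those over 50 bases apart), and of the 27 frame-changing coding pairs 6 moved toward it and 21 away, with a median minor share of 7.90% in Y36C DMSO and 14.1% in Y36C E7107. Under E7107 the minor site was used more in Y36C than in WT cells in 113 of the 169 called members and less in 56 (33.1% toward the dominant site, against 42.4% among all called pairs and 28.2% among those over 50 bases apart), and in 50 of the 63 frame-changing coding pairs, where its median share was 13.8% in Y36C and 5.35% in WT cells. Calls were also counted where both junctions were above 0 in every sample of some group not compared. In Y36C cells 20 such members moved toward the dominant site and 55 away, against 1946 and 6271 among all such pairs. Under E7107 the counts were 55 and 106, against 2646 and 5715. These differences were not tested. The plot by class shows the split without this demand.

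**Figure D5:**
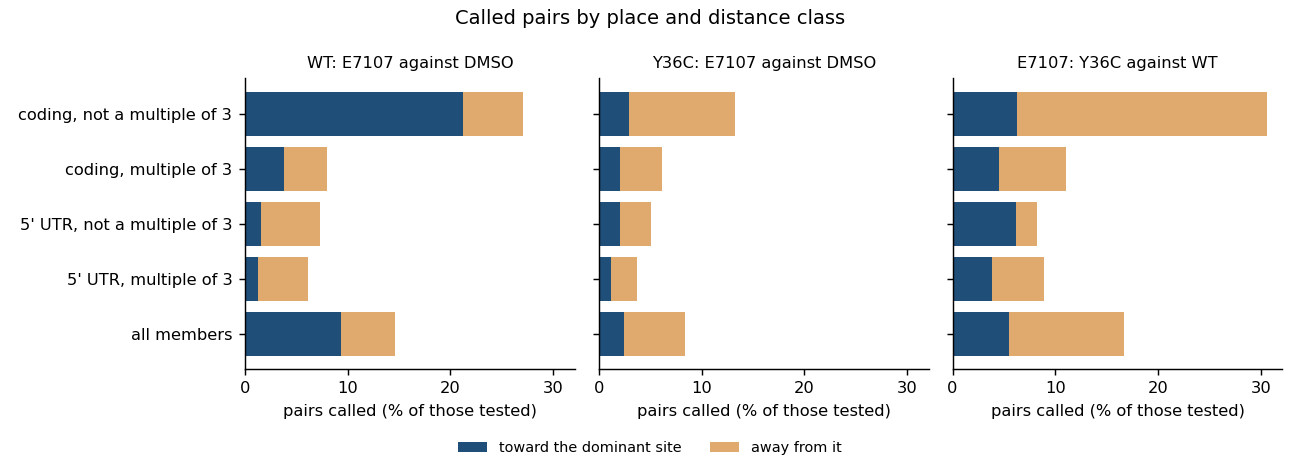
Percentage of tested pairs that were called (x axis) in 4 classes of pairs and in all members (y axis), for E7107 against DMSO in WT cells (left), the same in Y36C cells (middle) and Y36C against WT under E7107 (right). Bars are split into moves toward the site dominant in untested DMSO samples (dark blue) and away from it (tan): frame-changing coding pairs reach 27.0% in WT cells, mostly toward the dominant site, and 13.2% in Y36C cells, mostly away from it. Not drawn are the shares over all pairs at any distance, 28.8% in WT cells and 37.1% in Y36C cells.

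Among pairs at 4 bases in WT cells 22 of 115 tested were called (19.1%), 19 toward the dominant site and 3 away, with a median minor share of 13.7% in WT DMSO and 2.52% in WT E7107. In Y36C cells 6 of 108 were called (5.56%), 1 toward the dominant site and 5 away. Their log ratio was less precise, with a median SE of 0.49 in WT cells against 0.35 over all members tested. Of the 104 pairs at 4 bases with both junctions above 0 in every sample of some Y36C group, 19 were called in WT cells (18.3%). They moved toward the dominant site in 16 and away in 3, and 22.2% of all such pairs were called. Pairs with a GC site were called in 7 of 55 in WT cells (12.7%) and 2 of 57 in Y36C cells (3.51%). Over all pairs 28.8% were called in WT cells and 37.1% in Y36C cells, with 30.5% and 17.9% of those calls toward the dominant site.

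Annotation and site strength were set beside the calls in the same way. Of pairs with both junctions annotated 110 of 788 were called in WT cells (14%), and of the rest 45 of 276 (16.3%), with 65 of 771 (8.43%) and 20 of 244 (8.20%) in Y36C cells. Where the lower-scoring site was dominant by a score difference over 2, 18 of 139 were called in WT cells (12.9%) and 16 of 132 in Y36C cells (12.1%), and where the higher-scoring site was dominant by as much, 33 of 228 (14.5%) and 19 of 221 (8.60%). All these shares lie below those over all pairs, 28.8% in WT cells and 37.1% in Y36C cells.

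Introns differed in length and in retention, and calls were set beside both. In WT cells 31 of 162 pairs with a proximal intron under 200 bases were called (19.1%), 46 of 289 from 200 to under 1000 bases (15.9%), 56 of 387 from 1000 to under 5000 bases (14.5%) and 22 of 226 at 5000 bases or more (9.73%). The median SE of the log ratio rose along the same classes, from 0.30 to 0.40. Pair choice was called in 80 of 477 pairs whose shared 3′ site had raised retention in WT cells (16.8%), in 12 of 61 with lowered retention (19.7%) and in 30 of 180 where retention was tested and not called (16.7%), all by the test of retention without regard to the group through which a site entered it. In Y36C cells the counts were 16 of 108 (14.8%), 1 of 18 (5.56%) and 36 of 420 (8.57%). Where retention could not be tested, 33 of 346 pairs in WT cells (9.54%) were called, with a median SE of 0.53. For comparison, 28.8% of all pairs were called in WT cells and 37.1% in Y36C cells.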

How the data were processed

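RNA was measured in 24 samples, 6 in each of 4 groups set by the genotype, treatment and replicate number in the labels, and none was left out. The authors aligned reads to hg19 with STAR (version not given in the sources used here) and deposited the percent spliced in (PSI, a percent) of every junction among the reads at its splice site, with unspliced boundary reads as an outcome of their own. The files used here hold no counts, so the depth is unknown and no counting interval is given. Of 1830076 rows per file, 6433 (mitochondrial or without strand) were left out. Introns were taken to begin 1 base past the listed start and to end at the listed end, which gave GT and AG ends in 97.2% of 658288 junctions of the GRCh37 sequence. Genes came from the GENCODE annotation lifted to GRCh37.

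Pair choice was tested with limma 3.58.1 (R 4.3.3) on ln((proximal PSI + 1)/(distal PSI + 1)), with 1 percentage point as the offset, over all 38859 pairs sharing a 3′ site at any distance, and retention on ln((PSI + 1)/(101 - PSI)) over all rows tested, both without covariates and with Benjamini-Hochberg adjustment (0.05). A sample with reads at the 3′ site but on neither junction enters as a ratio of 1. For each comparison of a pair of groups, members were chosen on the other groups, and for the difference between genotypes on all 4. The test was checked on simulated data with the spread of WT DMSO in every group. Of 100 pairs shifted by 1 in log ratio 42% were called, and of 100 shifted by 2, 81%. Among the pairs left unshifted 13 were called. The spread of WT E7107 was not simulated. Named pairs (36 in 35 genes, none on chromosome 8) are the 6 largest called changes in share per comparison, the 4 largest of the difference between genotypes, the 4 most stable, those in the lists, and, added after their values were seen, the 5 lowest adjusted p in WT, in Y36C and for the difference between genotypes. Their shares were also compared by 132 exact two-sided permutation tests of 6 samples against 6 (924 splits, smallest p 0.002165). The members, classes and lists were chosen with earlier results of these data known. Same-numbered samples did not deviate together, so the replicate numbers were not taken as pairs. Alternatives were the share in percent, an offset of 0.1, no filter on low PSI, the replicate number as a block, a member limit of 10% and, added after the data were seen, only features above 0 in every sample of a group the comparison does not use, which for the difference between genotypes leaves no group. Under this last alternative retention sites still had to be above 0 in every sample of a compared group as well.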

Additional observations from a re-analysis of the deposited data

Results flagged for a closer look

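In 10 of 146 groups of 6 examined, 1 sample lay far from the others by Dixon's ratio, where chance gives about 7.3 (1 in 20). The highest sample was the distant one for FAM168B in Y36C DMSO (proximal share 40.0%), NUDT1 in WT DMSO (54.5%), ZNF37A in WT E7107 (100%), DAG1 in Y36C E7107 (11.1%) and CENATAC in WT DMSO (54.2%). The lowest was the distant one for ELOVL7 in WT E7107 (69.2%), MRPL24 in WT DMSO (49.3%), PABPC4 in Y36C DMSO (58.7%), LUC7L in Y36C E7107 (23.4%) and IRF2BP2 in Y36C E7107 (45.8%).

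The E7107 effect on the log ratio differed between Y36C and WT cells, by limma's test of the difference, in 17 of the named genes with both junctions at 5% or more in all 4 groups. The effect in Y36C minus that in WT was 2.98 in N4BP2L2, 1.31 in NUDT1, 2.14 in ARHGEF16, 1.40 in CENATAC, 2.52 in HDHD2, 2.03 in SKA1, 1.82 in LUC7L, 0.39 in CNBP, 0.65 in YAP1 and 0.57 in SLX9. It was -2.72 in ELOVL7, -2.52 in PIGBOS1, -1.71 in PRPF38B, -1.20 in BRPF1, -1.58 in ENOPH1, -0.97 in IRF2BP2 and -0.37 in GRHPR. Several of these genes were named for this difference or for its parts, so the list is no sample of the members.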

How the results depend on the processing

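Counts of members called stayed within 1.5 times those reported under the share in percent, the offset of 0.1 and the replicate number as a block, with an exception in the comparison without drug, where 3 calls became 0 with the block and 0 with the offset of 0.1. Without the filter on low PSI they were 54 in Y36C cells (85 reported) and 1 without drug, with the other counts of pair choice within 1.5 times. A member limit of 10%, which leaves fewer members, gave 79 in WT cells, 50 in Y36C cells, 96 under E7107 and 24 for the difference between genotypes, and for retention 361 and 235 sites in WT cells (3′ and proximal 5′), 98 and 68 in Y36C cells and 321 for the difference. The replicate numbers were not taken as pairs: the correlation of the deviations of same-numbered samples was -0.05 to 0.06 between the WT groups, 0.02 to 0.12 between the Y36C groups (1 of 6 pairs over 0.1), -0.0014 to 0.08 between the DMSO groups and -0.06 to 0.03 between the E7107 groups, and at most 2 of 6 samples correlated best with their own number. With the replicate block 125 members were called in WT cells, 73 in Y36C cells, 154 under E7107 and 48 for the difference. With only features above 0 in every sample of an unused group, an alternative chosen after seeing the data, 420 and 232 retention calls were left in WT cells (3′ and proximal 5′, of 642 and 364), with fewer sites tested. The other counts over members stayed within 1.5 times, and of the classes in WT cells the 5 calls at multiples of 3 in the 5′ UTR became 2. The named results are taken here without FAM168B and DAG1 in Y36C cells and COL27A1 under E7107, for which no test is given. With the block ZNF37A and ARHGEF16 in Y36C cells and the 3 without drug were no longer called. The offset of 0.1 took away the calls of MYO9B, SKA1 and the 3 without drug. Without the filter NUDT1, ZNF37A, SKA1, and CENATAC and ELOVL7 in the comparison without drug were no longer called. None was lost with the share in percent, and none turned its direction. The share in percent and the setting without the filter could not be applied to FAM168B and PIGG in WT cells, MSTO1 under E7107 and the difference for PIGBOS1. Each of these has a sample without reads on the pair. Among the exact tests of the named pairs 58 of 132 had p of 0.05 or less, and 62 with the PSI of the proximal junction in place of the share. Most of these pairs were named for a call in the same samples, so these counts follow in part from that choice and are no separate evidence. Without read counts, small differences in pairs whose samples spread widely were not detectable.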
